A study of Mus musculus with 6 samples.

Results

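Translation initiation and elongation factors were read in MC38 cells, a mouse colorectal cancer line, given the free fatty acid form of eicosapentaenoic acid (EPA), and in control cells. The factors are the rows of the deposited array table whose target ID begins with EIF1 to EIF6, EEF1 or EEF2, without the kinase rows EIF2AK2 and EIF2AK3. The rule found 66 of the 30828 rows, which stand for 60 genes, and it used names and no measured value. The EPA group was 3 samples kept for 24 h in RPMI medium with 50 µM EPA and foetal calf serum, and the control group was 3 samples of the same line in the same serum-containing medium. The labels give neither the vehicle nor the time of the control. Nor do they say whether the replicates are separate cultures, and each p therefore measures no more than the spread among these samples, possibly a technical one. The rows fall into 4 of the eIF1 group, 4 eIF2 subunits, 5 of the eIF2 exchange factor eIF2B, 7 others that carry EIF2 in their name, 17 of eIF3, 16 of eIF4, 5 of eIF5 and eIF6, and 8 of elongation.

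Eukaryotic initiation starts with the small ribosomal subunit, which eIF1, eIF1A and the many-subunit scaffold eIF3 make ready for the initiator tRNA that GTP-bound eIF2 delivers. The eIF4 factors bind the cap of the message, unwind it and bring it to that subunit; eIF5 triggers GTP hydrolysis by eIF2, and eIF2B reloads eIF2 with GTP. Kinases that phosphorylate eIF2 turn it into an inhibitor of eIF2B, which lowers most protein synthesis and favours the messages of stress factors such as ATF4. In elongation, eEF1A brings aminoacyl-tRNA to the ribosome, the eEF1B subunits recharge eEF1A with GTP, and eEF2 moves the ribosome along.

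The translation factors moved little: no row differed by 1.5-fold between EPA and control cells. Of 51 rows above background, 7 were higher in EPA cells (16.3% of all 11750 targets tested were), 3 were lower (16.6% of all) and 41 did not pass the test, which is 19.6% called, against 32.9% of all targets (limma, Benjamini-Hochberg adjusted p under 0.05). The rows that rose were 4 subunits of eIF3 (Eif3b, Eif3f, Eif3l and Eif3j1), the helicase partner Eif4b, the eIF2 kinase Eif2ak1 and the elongation subunit Eef1g. The rows that fell were Eef1e1, Eef1b2 and Eif1ad. With background subtracted, Eif1ad, Eif3f, Eif3l, Eif3j1, Eef1g and Eif2ak1 lost their calls (limma adjusted p 0.0574 to 0.0781), and with no background filter Eef1e1 alone stayed called. The log2 differences, EPA minus control, ran between -0.57 and 0.39, with a median of 0.08 where the median over all targets tested was -0.00. The median absolute log2 difference was 0.15 for the factors and 0.18 for all targets tested. The arrays of the 2 groups did not overlap in 25 of the 51 rows (49.0%), against 46.8% of all targets tested. EPA lay above in 19 rows (37.3%, against 23.0% of all targets tested) and below in 6 (11.8%, against 23.8%), and 33 of the 51 log2 differences were positive. The share called was thus below that of all targets and the share not overlapping near it, while the rows that did not overlap had EPA above more often than targets at large; this tilt was not tested.

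The promoters of 4 genes whose rows passed the test are printed here from RefSeq (GRCm38.p6), each 300 bases from 250 before to 50 after the gene's start, read 5′ to 3′ on the gene's own strand. Eef1e1 and Eef1b2 are shown as the pair with the largest falls, Eif2ak1 as the eIF2 kinase that rose, and Eif3f as the one gene that rose with an E-box. Capitals mark a match to 1 of 3 motifs, each searched on both strands: CACGTG, the E-box bound by MYC and related factors; CCGGAAG, an ETS factor motif; and TGATGNAA, the element bound by ATF4.
Eef1e1, chr13:38658979-38659278, minus strand: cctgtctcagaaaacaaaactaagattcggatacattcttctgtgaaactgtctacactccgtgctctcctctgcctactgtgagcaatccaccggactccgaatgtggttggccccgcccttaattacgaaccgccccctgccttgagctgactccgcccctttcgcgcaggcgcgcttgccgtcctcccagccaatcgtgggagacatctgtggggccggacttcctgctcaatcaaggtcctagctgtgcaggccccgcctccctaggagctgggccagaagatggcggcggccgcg
Eef1b2, chr1:63176581-63176880, plus strand: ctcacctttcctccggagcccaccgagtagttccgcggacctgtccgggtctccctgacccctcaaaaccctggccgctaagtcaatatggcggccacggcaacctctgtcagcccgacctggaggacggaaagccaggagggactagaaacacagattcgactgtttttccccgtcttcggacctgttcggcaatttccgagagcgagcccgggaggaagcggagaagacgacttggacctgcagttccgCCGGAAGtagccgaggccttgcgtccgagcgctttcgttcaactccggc
Eif2ak1, chr5:143817542-143817841, plus strand: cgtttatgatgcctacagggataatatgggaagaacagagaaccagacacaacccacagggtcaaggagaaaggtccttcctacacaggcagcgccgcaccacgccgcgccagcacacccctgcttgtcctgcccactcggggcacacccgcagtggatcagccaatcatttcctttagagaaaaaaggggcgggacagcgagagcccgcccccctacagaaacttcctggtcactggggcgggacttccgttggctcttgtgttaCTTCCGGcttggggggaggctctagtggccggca
Eif3f, chr7:108934165-108934464, plus strand: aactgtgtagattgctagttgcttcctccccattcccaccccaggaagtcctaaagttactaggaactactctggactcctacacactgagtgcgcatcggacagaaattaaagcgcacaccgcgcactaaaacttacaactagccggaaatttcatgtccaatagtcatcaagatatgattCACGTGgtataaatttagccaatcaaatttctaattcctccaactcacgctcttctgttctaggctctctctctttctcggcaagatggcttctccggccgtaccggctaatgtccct
The Eef1e1 window holds none of the 3 motifs. In Eef1b2 the ETS match begins at base 2 of the transcript, and in Eif2ak1 the ETS match lies on the opposite strand, its first printed base at base 17. In Eif3f the E-box begins 68 bases before the start.

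Promoters were found in RefSeq's table for 46 of the 60 factor genes. An E-box was present in 12 of them (26.1%), compared with 11.9% of the 7438 tested genes with a promoter and 8.09% of all 27025. The genes with an E-box were Eef2, Eef2k, Eif1b, Eif3a, Eif3f, Eif3k, Eif4a1, Eif4e, Eif4g1, Eif4h, Eif5a and Eif5a2, and of these Eif3f alone passed the test. The ETS motif was present in 17 of the 46 (37.0%), compared with 21.5% of tested genes and 9.93% of all. Among those 17, Eif2ak1 and Eif3l rose, Eef1b2 and Eif1ad fell, 11 did not pass the test and 2 were below background. The ATF4 element was in Eef2k and Eif2s3x only among the 46 (4.35%), beside 2.72% of tested genes and 4.51% of all. A match is a description of letters in a window, and no test was made of these shares.

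**Figure D1:**
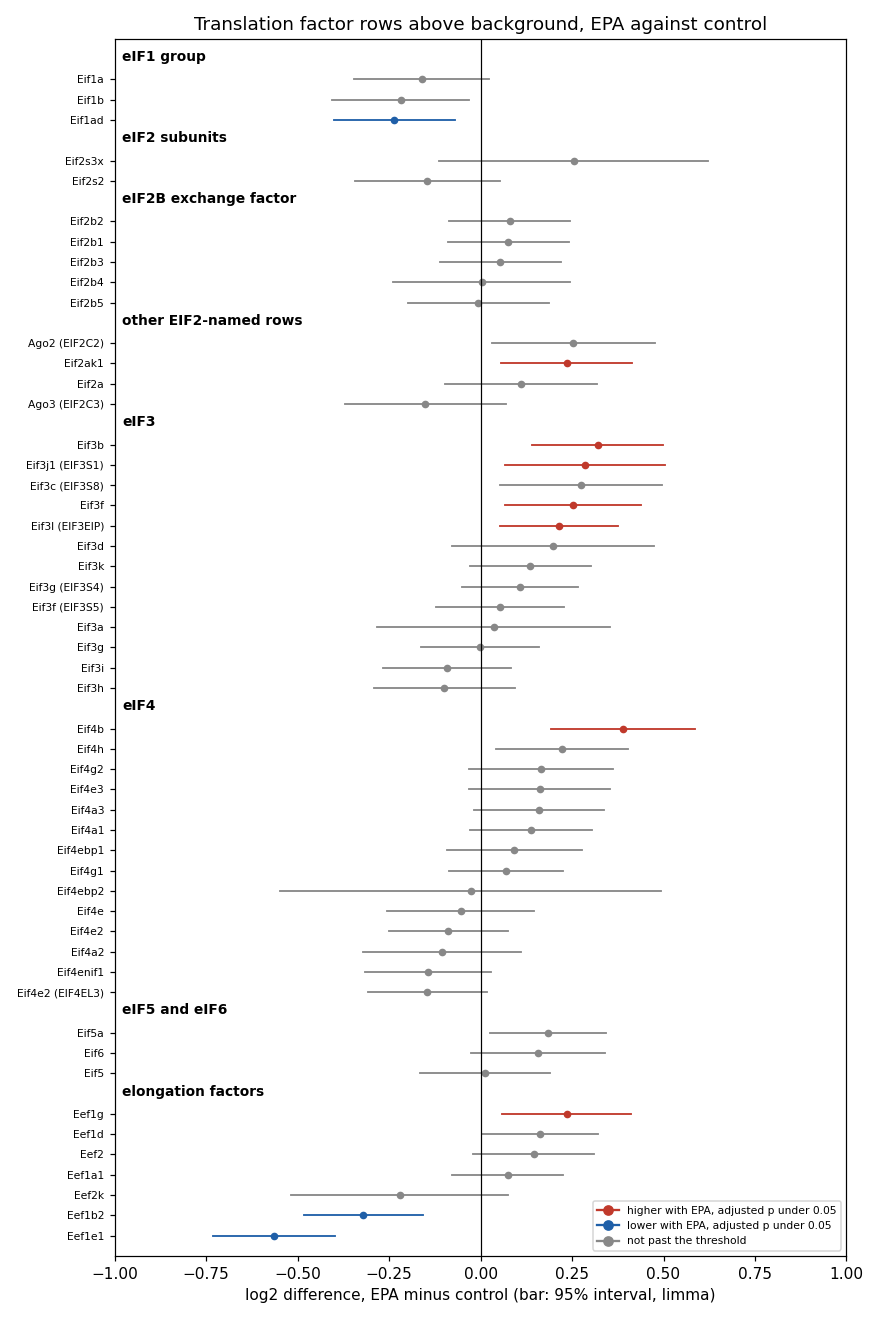
Log2 difference, EPA minus control, of each of the 51 factor rows above background (point) with its 95% interval from limma (bar), by group. Red points are the 7 rows higher with EPA, blue points the 3 lower, grey points the 41 that did not pass; the points lie between -0.57 and 0.39.

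eIF2 delivers the initiator tRNA, and its measured subunits showed no call in either direction. Of 4 rows, 2 were above background, and limma called neither (0 at an unadjusted p under 0.05 as well). Of all targets tested, 32.9% were called. Eif2s2, the beta subunit, had an intensity of 985, 1028 and 866 in EPA cells, against 1134, 1012 and 1033 in control cells. Eif2s3x, the X-linked gamma subunit, had 1466, 929 and 1006 in EPA cells and 827, 1074 and 908 in control cells. Both rows overlapped between groups, and EPA replicate 1 stood above every other array for Eif2s3x. The log2 differences were -0.15 for Eif2s2 (95% interval -0.34 to 0.05) and 0.25 for Eif2s3x (-0.11 to 0.62). The row of the alpha subunit, Eif2s1, which carries the site that the stress kinases phosphorylate, was not above background on any array, and neither was that of the Y-linked Eif2s3y.

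All 5 subunits of eIF2B were above background, and none was called (limma, 0 at an unadjusted p under 0.05), where 32.9% of all targets tested were. Eif2b2, the beta subunit, read 628, 644 and 692 in EPA cells, against 638, 615 and 604 in control cells. Eif2b1, the alpha subunit, read 656, 659 and 623 in EPA cells, against 582, 639 and 619 in control cells. Eif2b3, the gamma subunit, read 745, 788 and 829.7 in EPA cells, against 756, 771 and 748 in control cells. In each of these the highest array was an EPA array, but the groups overlapped. Eif2b5, the catalytic epsilon subunit, read 1154, 1002 and 1006 in EPA cells and 992, 1106 and 1073 in control cells, again with overlap. The log2 differences of the 5 rows lay between -0.01 (Eif2b5) and 0.08 (Eif2b2), and their 95% intervals together spanned -0.24 to 0.25, so a change of 1.5-fold lies outside every one of them.

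Among the rows named after eIF2 that are no part of it, 1 of the 4 above background rose (25.0%, against 16.3% of all targets tested). The groups did not overlap in 2 of the 4 (50.0%, against 46.8% of all targets tested). Eif2ak1 is the haem-regulated kinase of eIF2 (HRI). It read 329, 337 and 334 in EPA cells, against 259, 295 and 298 in control cells. All EPA arrays lay above all control arrays, and the EPA arrays lay close together. The log2 difference was 0.24 (SE 0.0798, limma adjusted p = 0.0472), and leaving out any 1 of the 6 arrays ended the call, with adjusted p between 0.0579 (without control replicate 3) and 0.165 (without control replicate 1). Argonaute genes, which carry small RNAs and once bore eIF2C names, make up 4 of these 7 rows. Ago2 (row EIF2C2), the slicing argonaute, read 145, 143 and 148 in EPA cells and 143, 115 and 111 in control cells. Its groups did not overlap, although control replicate 1 lay just under the EPA arrays, and the row did not pass (log2 0.25, limma adjusted p = 0.0779). It passed once control replicate 1 was left out (limma adjusted p = 0.0136). Ago3 (row EIF2C3) read 43.3, 49.5 and 49.9 in EPA cells and 59.3, 51.3 and 48.1 in control cells, with a log2 difference of -0.15. Eif2a, a factor apart from eIF2 that can bind initiator tRNA, read 2310.4, 2727 and 2298 in EPA cells and 2159, 2188 and 2438 in control cells (log2 0.11). Both overlapped between groups. Eif2ak4, the kinase GCN2, and the argonautes Ago1 and Ago4 were below background on all 6 arrays.

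The eIF1 rows above background all had lower means in EPA cells. Of these 3 rows, 1 passed the test (33.3%, near the 32.9% of all targets tested). The groups did not overlap in 2 of the 3 (66.7%, against 46.8% of all targets tested). Eif1ad, whose protein holds an eIF1A-like domain, read 1181, 1237 and 1204 in EPA cells, against 1341, 1475 and 1452 in control cells. No EPA array reached a control array. It fell by 0.24 on the log2 scale (SE 0.0738, limma adjusted p = 0.0348). The call was lost without any 1 EPA replicate and without control replicate 2 or 3 (adjusted p 0.0623 to 0.101), and held without control replicate 1 (limma adjusted p = 0.0405). Eif1b, a close relative of the start-codon factor eIF1, read 864, 775 and 909 in EPA cells and 1032, 962 and 965 in control cells. Its groups did not overlap either, but the row did not pass (log2 -0.22, limma adjusted p = 0.0701). Eif1a, which with eIF1 opens the small subunit for scanning, read 1419.9, 1299 and 1282 in EPA cells and 1415, 1609 and 1454 in control cells. Here EPA replicate 1 overlapped the control arrays (log2 -0.16, limma adjusted p = 0.162).

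eIF3 is the largest initiation factor, and 4 of its 13 rows above background rose and none fell. That is 30.8% called, against 32.9% of all targets tested. All 4 calls were higher, so 30.8% of the rows rose, against 16.3% of all targets. Among the calls over all targets, 49.6% were higher. The 13 rows stand for 11 genes. With 1 target a gene, 4 of these 11 rose, and 54.2% of the calls over all targets were higher. The difference of eIF3 from other targets was not tested. Over the 13 rows the median log2 difference was 0.14, with 10 positive and 3 negative. Eif3b, the subunit around which the mobile part of the complex is built, read 631, 548 and 563 in EPA cells, against 476, 449 and 467 in control cells. Eif3f, a subunit of the scaffold core with an MPN domain, read 5589.5, 6598 and 6288 in EPA cells, against 5275, 4984 and 5212 in control cells. Eif3l (row EIF3EIP), a peripheral subunit of the scaffold, read 3891, 3998 and 3950.1 in EPA cells, against 3241, 3446 and 3529.8 in control cells. In all 3 rows every EPA array was above every control array. Eif3j1 (row EIF3S1), the loosely held subunit near the decoding site, read 63.4, 76.9 and 78.7 in EPA cells and 56.0, 60.5 and 62.4 in control cells. The groups again did not overlap, with EPA replicate 1 barely above control replicate 3. Mice have a near-identical second copy, Eif3j2, and the reading cannot be split between the copies.

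The log2 differences of these rows were 0.32 for Eif3b (SE 0.08, limma adjusted p = 0.0135), 0.29 for Eif3j1, 0.25 for Eif3f and 0.21 for Eif3l. The limma adjusted p of Eif3f, Eif3l and Eif3j1 lay near the threshold, at 0.0417, 0.0455 and 0.0485. The Eif3b call held without each array in turn (adjusted p 0.0193 to 0.0453). Eif3l lost its call without any 1 array (adjusted p 0.0621 to 0.149); Eif3f and Eif3j1 kept theirs only without EPA replicate 1 and otherwise had adjusted p of 0.0681 to 0.156. With the level of background subtracted, Eif3j1, which lies near background, had a log2 difference of 0.50 and an adjusted p of 0.0684 in limma.

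The other eIF3 rows did not pass. Eif3c (row EIF3S8), another core subunit, read 436, 543 and 442 in EPA cells, against 403, 401 and 366 in control cells, and its groups did not overlap. Its log2 difference was 0.27, with a limma adjusted p of 0.0586. Eif3k and the row EIF3S4 of Eif3g also had every EPA array above every control array, at log2 differences of 0.14 and 0.11. Eif3d, which can itself bind the cap of some messages, had 0.20 with overlap. Eif3a, the largest subunit, had 0.04, Eif3h -0.10 and Eif3i -0.09, each with overlap. Eif3e had only the row EIF3S6, which was below background.

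Some genes have a pair of rows, which did not always tell the same story. Eif3f rose on its row EIF3F, while the row EIF3S5 read 3925, 3839 and 3987 in EPA cells and 3937, 3937 and 3474 in control cells. That second row overlapped between groups (log2 0.05, 95% interval -0.12 to 0.23, limma adjusted p = 0.642), so the rise of Eif3f rests on 1 of its rows. For Eif3g the rows EIF3G and EIF3S4 had log2 differences of -0.00 and 0.11. For Eif4e2 the rows EIF4E2 and EIF4EL3 had -0.09 and -0.15. The second rows of Eif3a, Eif3h and Eif3i did not pass the background filter. Which transcript each row reads was not analysed here.

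**Figure D2:**
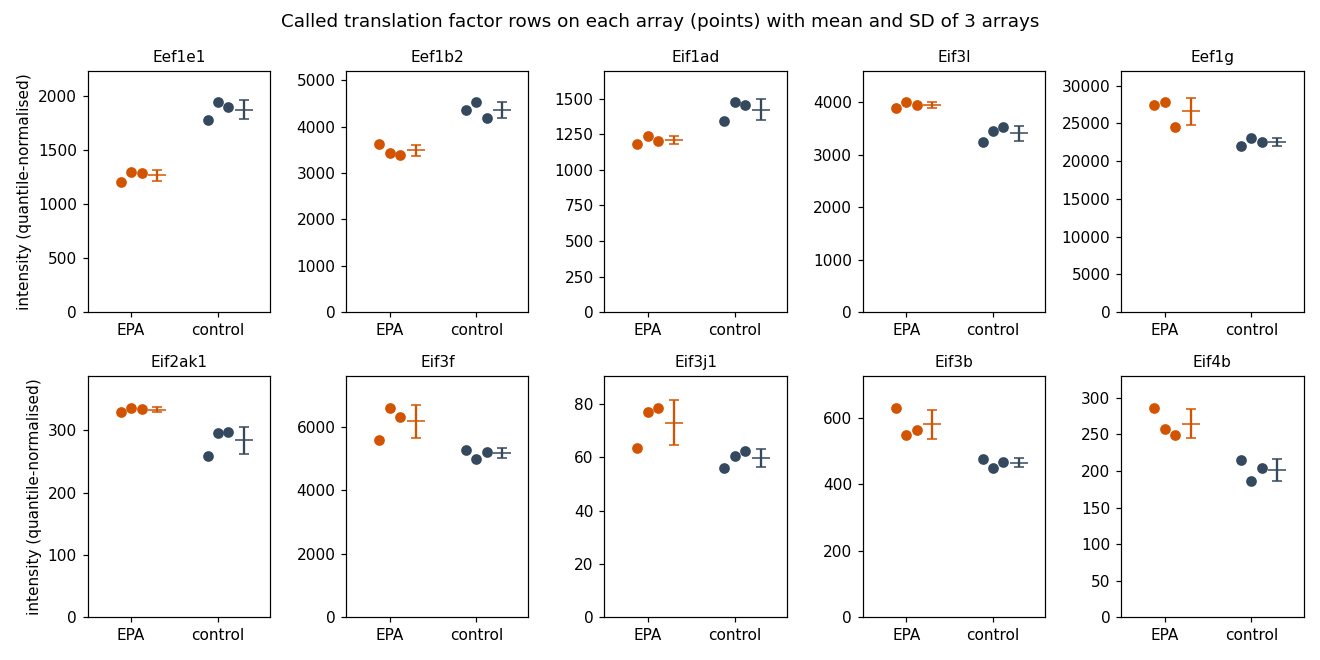
Quantile-normalised intensity (linear axis that starts at 0, one panel a gene) of the 10 called rows on each of the 3 EPA and 3 control arrays (points), with the mean and SD of each group beside them. EPA arrays lie below control arrays for Eef1e1, Eef1b2 and Eif1ad and above them in the other 7 panels, with no overlap.

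The eIF4 factors, which act at the cap, held 1 call among 14 rows above background (7.14%, against 32.9% of all targets tested). Eif4b stimulates the helicase eIF4A and is phosphorylated by S6 kinases. It read 287, 257 and 249 in EPA cells, against 216, 186 and 204 in control cells. Every EPA array was above every control array, and the rise was the largest of any factor row (log2 0.39, SE 0.088, limma adjusted p = 0.00841). The call held without each array in turn (adjusted p 0.0132 to 0.0324). Eif4h, which acts on eIF4A in the same way, read 7978, 8718 and 7638 in EPA cells and 6642, 7258 and 6935 in control cells. Its groups did not overlap, but the row did not pass (log2 0.22, limma adjusted p = 0.0582).

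Eif4a3, the helicase of the exon junction complex, read 1672, 1927 and 1788 in EPA cells and 1615, 1549 and 1648 in control cells. The groups did not overlap, and the log2 difference was 0.16 (limma adjusted p = 0.15). Eif4e2 (row EIF4EL3), a cap-binding protein that represses translation, read 2471, 2416 and 2565 in EPA cells and 2750.2, 2635 and 2859 in control cells. All its EPA arrays were below the control arrays, at a log2 difference of -0.15 (limma adjusted p = 0.154). The cap-binding factor Eif4e itself had a log2 difference of -0.05 (95% interval -0.26 to 0.15), and the helicases Eif4a1 and Eif4a2 had 0.14 and -0.11. The scaffold Eif4g1 had 0.07 and its relative Eif4g2, which lacks the eIF4E site, had 0.17; in both every EPA array was above every control array, and neither passed. Eif4enif1, which carries eIF4E to the nucleus and to P-bodies, had -0.14, with every EPA array below the control arrays. Eif4e3, another cap-binding relative, had 0.16.

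The eIF4E-binding proteins, which mTORC1 inactivates by phosphorylation, were not called. Eif4ebp1 read 5775, 6019.6 and 5775 in EPA cells and 5197, 5275 and 6042 in control cells, a log2 difference of 0.09 (95% interval -0.09 to 0.28). Eif4ebp2 read 578, 301 and 321 in EPA cells and 395, 474 and 316 in control cells. This was the row with the widest spread of any factor, with a log2 SD of 0.52 in EPA cells and 0.29 in control cells, and its interval ran over -0.55 to 0.49. EPA replicate 1 was its highest EPA array and control replicate 2 its highest control array. Limma's array weight for EPA replicate 1 was 0.528, beside 0.888 to 1.5 for the other 5 arrays. Eif4e1b and Eif4ebp3 were below background on all arrays.

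Of eIF5 and eIF6, 3 of 5 rows were above background, and limma called none (1, Eif5a, at an unadjusted p under 0.05). The share called over all targets tested was 32.9%. Eif5a, which helps stalled ribosomes and carries the modified lysine hypusine, read 4857, 4554 and 4629.6 in EPA cells, against 4041, 4079 and 4231 in control cells. Its groups did not overlap (log2 0.18, 95% interval 0.03 to 0.34, limma adjusted p = 0.0721). Eif6, which keeps the large subunit from joining too early, read 5275, 5829.7 and 5417 in EPA cells and 4947, 4601 and 5287 in control cells. Eif5, the GTPase activator of eIF2, read 2959.8, 2583 and 2691 in EPA cells and 2635, 2835 and 2689 in control cells. Both overlapped, with log2 differences of 0.16 and 0.01. Eif5a2 and the subunit-joining GTPase Eif5b did not pass the background filter, though Eif5b exceeded the limit on 2 of 3 control arrays and on no EPA array.

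**Figure D3:**
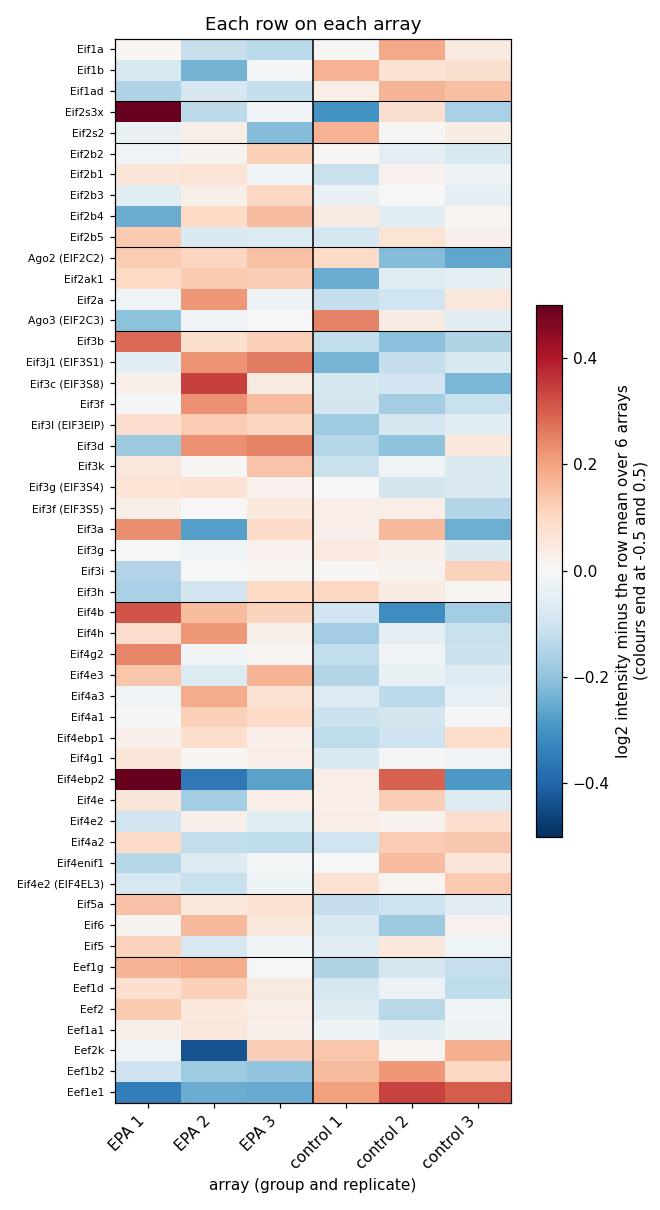
Log2 intensity of each of the 51 rows on each array, as the difference from the row's mean over the 6 arrays, with EPA arrays at left and control arrays at right of the line (red above, blue below the mean; colours end at -0.5 and 0.5). Eef1e1 and Eef1b2 are blue in all EPA columns, and Eif4ebp2 and Eif2s3x stand out on EPA replicate 1.

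The elongation rows held the largest fall, and their calls went in both directions: of 7 rows above background, 2 fell and 1 rose (42.9% called, against 32.9% of all targets tested, 16.6% lower and 16.3% higher). Eef1e1, also called AIMP3 or p18, is a scaffold protein of the complex of aminoacyl-tRNA synthetases and no elongation factor in the strict sense. It read 1208, 1296 and 1289.6 in EPA cells, against 1774, 1941 and 1898 in control cells. The highest EPA array lay far below the lowest control array. It fell by 0.57 on the log2 scale (SE 0.0749, 95% interval -0.73 to -0.40, limma adjusted p = 0.000507), a level in EPA cells of 0.676 times that in control cells. This was the one factor row called under all 15 other settings and left-out arrays (limma adjusted p 5.2e-05 to 0.0233).

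Eef1b2, Eef1d and Eef1g are the subunits of eEF1B, the complex that recharges eEF1A. Eef1b2, a nucleotide exchange subunit, read 3627, 3441 and 3397 in EPA cells, against 4352, 4525 and 4189 in control cells. It fell by 0.32 on the log2 scale, with no overlap (SE 0.0729, limma adjusted p = 0.00873), and held without each array in turn (adjusted p 0.011 to 0.0353). Eef1g, the structural subunit, read 27494, 27797 and 24472 in EPA cells, against 22026, 23069.6 and 22582 in control cells. It rose, again with no overlap (log2 0.23, SE 0.0783, limma adjusted p = 0.0442). Its call held without EPA replicate 3 and was lost without any other array (adjusted p 0.0741 to 0.132). Eef1d, the second exchange subunit, read 2671, 2746 and 2613 in EPA cells and 2381, 2479 and 2318 in control cells. Its groups did not overlap, but it did not pass (log2 0.16, limma adjusted p = 0.108). The subunits of this complex thus included a row that fell and a row that rose.

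Eef1a1, which carries aminoacyl-tRNA to the ribosome, read 20934, 21367 and 20934 in EPA cells and 20162, 19768 and 20162 in control cells. Every EPA array was above every control array, by a log2 difference of 0.07 (95% interval -0.08 to 0.23), and the row did not pass. Eef2, the translocase, read 1329, 1259 and 1241 in EPA cells and 1159, 1104 and 1202 in control cells, also without overlap and not past (log2 0.14, limma adjusted p = 0.162). Eef2k, the kinase that inhibits eEF2, had a log2 difference of -0.22 with overlap. Eef1a2, the form of muscle and neurons, was below background on all arrays.

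Of 13 pairs of paralogues, 5 had both genes above background, and the log2 ratio of the pair on each array was compared between groups. With 3 arrays a group, the exact permutation test cannot give a p below 0.1, and no pair had a Benjamini-Hochberg adjusted p below 0.5. The ratio of Eif4e to Eif4e3 was lower in EPA cells, between -1.16 and -1.10 on the log2 scale, against -1.03 to -0.85 in control cells. That is a difference of -0.22 (SE 0.0593), with the smallest exact two-sided p the design allows, 0.1. The ratio of Eif4a1 to Eif4a2 differed by 0.24 (SE 0.127, exact p = 0.2) with overlap. For Eif4g1 to Eif4g2, Eif4e to Eif4e2 and Eif4ebp1 to Eif4ebp2 the differences were -0.10, 0.09 and 0.12, with exact p of 0.3, 0.5 and 0.9.

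The genes around the factors were read in 9 lists. Of 74 tested genes of these lists that are no factor row, 5 were higher and 14 lower in EPA cells, which is 25.7% called, beside 32.9% of all targets. The counts of each list stand against 16.3% higher and 16.6% lower among all targets tested. The eIF2 phosphatase and ATF4 list had 2 of 8 tested genes lower and none higher. Ppp1r15a (GADD34), the stress-induced subunit that directs phosphatase to eIF2, read 493, 455 and 476 in EPA cells and 1399.6, 1173 and 1343 in control cells. It fell by 1.46 on the log2 scale (SE 0.0866, limma adjusted p = 1.96e-05). Atf4, the transcription factor whose message is favoured when eIF2 is phosphorylated, read 3437, 3647 and 3906 in EPA cells and 4721, 4677 and 4333 in control cells. It fell by 0.32 on the log2 scale (limma adjusted p = 0.013). Neither overlapped between groups. Phosphorylation of eIF2 was not measured on these arrays.

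The modification enzymes of eIF5A and eEF2 had the lowest median of the 9 lists. Of 7 tested, 4 fell (57.1%, against 16.6% of all targets tested) and none rose (16.3% of all), with a median log2 difference of -0.37 where that of all targets was -0.00. Its difference from other targets was not tested. Dhps, which makes the first step of hypusine on eIF5A, read 442, 482 and 509 in EPA cells and 722, 663 and 705 in control cells. It fell by 0.55 on the log2 scale (limma adjusted p = 0.000951). Dph3, which gives electrons to the first step of diphthamide synthesis on eEF2, read 751, 689.7 and 701 in EPA cells and 1291, 1241 and 1169 in control cells. It fell by 0.79 on the log2 scale (limma adjusted p = 0.000105). In both the groups lay wide apart. Dnajc24 and Dph2, of the same diphthamide step, fell by 0.41 and 0.37 on the log2 scale (limma adjusted p = 0.00911 and 0.00724). Dohh, the second hypusine enzyme, had -0.28 and just missed the threshold (limma adjusted p = 0.0501), Dph1 had -0.20, and Dph5 had 0.04. The rows of the modified factors, Eif5a and Eef2, were not called.

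The mTORC1 and MNK list had 3 of 17 tested genes lower and 1 higher, with a median log2 difference of -0.12. Mknk1, a kinase of eIF4E, read 188, 203 and 215 in EPA cells and 280.2, 272 and 289 in control cells, and fell by 0.47 on the log2 scale (limma adjusted p = 0.00167). Ddit4 (REDD1), a stress-induced inhibitor of mTORC1, read 1033, 1025 and 996 in EPA cells and 1497, 1382 and 1275 in control cells, and fell by 0.44 on the log2 scale (limma adjusted p = 0.00287). Neither row overlapped between groups. The members that fell thus include an inhibitor of the pathway that names the list. Sesn2, another inhibitor, fell by 0.42 on the log2 scale, and Rptor, the mTORC1 scaffold, rose (log2 0.23, limma adjusted p = 0.0318). Mtor had -0.14 and Pdcd4, which binds eIF4A, had 0.22, and neither passed (limma adjusted p = 0.172 and 0.0549).

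Factors of the mitochondrial ribosome moved in both directions, with 2 of 9 tested higher and 2 lower. Mtif2, which delivers the initiator tRNA there, read 124, 133 and 141 in EPA cells and 232, 246 and 285 in control cells. It fell by 0.94 on the log2 scale (limma adjusted p = 0.000126), and Mtrf1, a release factor, fell by 0.37 on the log2 scale (limma adjusted p = 0.00785). Tufm, the mitochondrial counterpart of eEF1A, read 2059, 2007 and 1948 in EPA cells and 1655, 1744 and 1619 in control cells and rose (log2 0.26, limma adjusted p = 0.0206). In each of these 3 rows the groups did not overlap. The translocase Gfm1 rose as well (log2 0.38, limma adjusted p = 0.044).

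In the selenocysteine list, Sephs2, which makes selenophosphate, rose (log2 0.39), while Trnau1ap and Sepsecs fell by 0.22 and 0.27 on the log2 scale, with 5 genes tested and limma adjusted p of 0.00344, 0.0456 and 0.0467. Of 10 termination and recycling genes, Denr, which acts in reinitiation, fell by 0.27 on the log2 scale (limma adjusted p = 0.0165) and the other 9 did not pass; of these, Trmt112 had 0.23. Limma called none of the 5 genes of poly(A)-binding protein and its partners (3 at an unadjusted p under 0.05) and none of the 11 start-site helicases and scanning partners (1 at an unadjusted p under 0.05). Pabpc1 had 0.16, Pabpc4 0.20 and Paip2b -0.26, and of the helicase list Ddx3x had 0.28.

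Messages that start with a C and a run of pyrimidines are controlled in translation by mTORC1. The list held 14 genes chosen from these, with no ribosomal protein gene, so it does not stand for all such messages. Over the 13 tested the median log2 difference was 0.16, with 10 above 0. Of the 13, 4 rose (Hnrnpa1, Eif4b, Eif3f and Eef1g) and 1 fell (Eef1b2). Eif3f was read on its row EIF3F, and its other row was not called. Hnrnpa1, an RNA-binding protein and no factor row, read 681, 728 and 716 in EPA cells and 564, 546 and 589 in control cells, without overlap (log2 0.32, limma adjusted p = 0.00832). The list shares most of its genes with the factor rows, so it adds little that is independent of them.

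**Figure D4:**
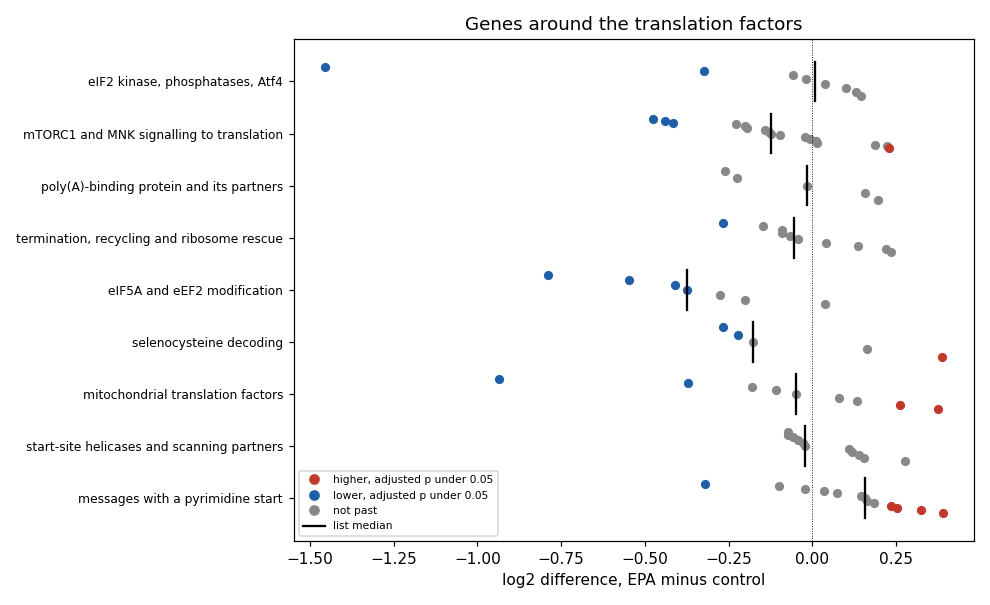
Log2 difference, EPA minus control, of each tested gene of the 9 lists around the translation factors (points; red higher, blue lower, grey not past limma's adjusted p of 0.05), with the median of each list as a black bar. The eIF5A and eEF2 modification list has the lowest median, -0.37, and Ppp1r15a lies farthest left at -1.46.

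The authors' deposited table of ratios lists 4423 targets and holds 14 of the factor rows, 9 with a ratio of EPA over control above 1 and 5 below. In the authors' deposited table the ratio is 0.68 for Eef1e1, 0.80 for Eef1b2, 1.31 for Eif4b and 1.25 for Eif3b. Of the 13 of these rows that were above background, 6 were called here and 7 were not, and all 13 had the same sign as in the authors' deposited table. The series holds only these 6 samples, so the shared sign is no independent check. Called here and not listed in the authors' deposited table were Eif3f, Eif3j1, Eef1g and Eif2ak1. The authors' deposited table also holds Eif5a2, at a ratio of 0.84; here this row was below background on all 6 arrays.

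The 15 factor rows below the background filter read between 12.7 and 48.3, against a limit of 39.6, and no difference is given for them. They are Eef1a2, Eif1ax (row EIF1AY), Eif2ak4, Ago1, Ago4, Eif2s1, Eif2s3y, second rows of Eif3a, Eif3h and Eif3i, Eif3e, Eif4e1b, Eif4ebp3, Eif5a2 and Eif5b. A reading below the limit gives only a bound and does not show that the gene is silent. All 51 rows kept were above the limit on all 6 arrays, so none was kept through one group alone.

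Arrays correlated at 0.994 to 0.997 within groups and at 0.984 to 0.986 between them, across targets. All arrays share 1 distribution of values (median 35.2), so a change of all RNA at once cannot be seen, and in bulk RNA fewer cells of a type and less RNA per cell cannot be told apart. Of 14 epithelial markers, 3 passed the filter and none was called (limma, 1 at an unadjusted p under 0.05). These 3 summed to intensities of 140.0 to 163 in EPA cells and 145 to 152 in control cells, and Epcam and Cdh1 were below the filter. Of 11 fibroblast and endothelial markers, 6 passed the filter. Dcn, Pdgfra, Col1a2 and Pdgfrb rose, and Col1a1 and Acta2 were not called. The 6 summed to 1357 to 1422 in EPA cells and 911 to 936 in control cells. The endothelial genes Pecam1, Cdh5, Kdr and Tek were below the filter. Of 14 immune markers, 4 passed the filter, with S100a8 lower and Ms4a1 higher, and Ptprc and Cd3e were below it. These 4 summed to 307 to 333 in EPA cells and 324 to 362 in control cells. Ms4a1 passed the filter only through the EPA arrays, where it is higher. Its control arrays read 35.7, 37.7 and 38.4, below the limit of 39.6. Cldn7 and Col1a1 also passed only through the EPA arrays. Over each whole list, rows at background included, the sums were 458 to 489 in EPA cells and 456 to 499 in control cells for the epithelial markers, 1515 to 1580 in EPA cells and 1071 to 1075 in control cells for the fibroblast and endothelial ones, and 616 to 631 in EPA cells and 604 to 676 in control cells for the immune ones. Their part in the differences of the translation factors was not tested.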

How the data were processed

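Total RNA of 6 MC38 samples (3 EPA, 3 control) was made into biotin-labelled cRNA and read on Illumina arrays, per the labels' protocols. GenomeStudio 1.7.0 and MouseWG-6 content version 2 are named, per the file headers. The values used are the deposited intensity of each target, linear and quantile-normalised by the authors: sorted values differ between arrays by at most 0.465%. How probes were combined, and whether background was corrected, no source used here says. The deposited probe numbers were used only to count probes per target, 1 for 36 of the factor rows and several for 30. The authors' deposited table gives a ratio and its log2 value, EPA over control, with the test not stated. In other tables, 102 columns of array values carry numbers that match no sample label and were not used.

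Targets were named through RefSeq's gene table (GRCm38.p6): 51 factor rows by current symbol and 15 by an older synonym. The mode of all intensities (28.2) stood for background, with an SD of 6.96 from the values below that mode. A target was kept above 39.6, the one-sided 0.05 level, on all 3 arrays of at least 1 group, which left 11750 targets. Log2 intensities were tested with limma 3.58.1 under R 4.3.3, using its linear fit and moderated two-sided test with Benjamini-Hochberg adjustment over the 11750 targets and a threshold of 0.05. The 95% intervals are not adjusted. If the level of 28.2 is background that the values still hold, differences understate the change of dim rows. The number of arrays limits the precision. A simulation with the spread of these data changed 67, 67 and 66 targets by 0.25, 0.5 and 1 on the log2 scale, in either direction. Of these, 11.9%, 88.1% and 100% were called, as were 0.0866% of the 11550 unchanged ones. In the data 32.9% of targets were called, so the Benjamini-Hochberg cut was stricter in the simulation. Its shares therefore do not give the rate of calls to be had in these data.

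The factor rows, the 9 lists and the motifs were chosen with earlier results of these data known. Values on every array are given for the 4 rows with the smallest p in each of the 8 groups, and for a few more that the text names. Of each list, the 2 tested genes with the smallest p are named, with Atf4, Ppp1r15a, Mtor, Pabpc1, Tufm and Pdcd4 where tested, and further genes of some lists were added after their values were seen. One gene that this rule names is not reported here. The alternatives were other filters, background subtraction, other normalisation, an intensity trend, array weights, 1 target a gene, a replicate block and each array left out.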

Additional observations from a re-analysis of the deposited data

How the results depend on the processing

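The factor rows called numbered 10, and between 10 and 13 with a stricter filter, cyclic loess, centring, an intensity trend, array weights or 1 target a gene. They numbered 1 without a background filter, where 3.79% of all 30828 targets were called, 4 with background subtracted and 4 to 8 with 1 array left out. These counts did not always hold the same rows. Eif3j1 lost its call with an intensity trend, and Eef1g with array weights. Without EPA replicate 1, 6 of the 8 called rows were among the 10, and without control replicate 1, 5 of 6 were. Same-numbered arrays, each centred on its group, correlated at -0.04, -0.18 and 0.10, and differently numbered ones at -0.21 to 0.23. With 3 arrays a group, these values cannot settle whether the replicate numbers pair the samples. With the replicate block there were 5 calls. Without a filter the calls were 0 for eIF1, 0 for the other EIF2-named rows, 0 for eIF3, 0 for eIF4, 1 for elongation and 5 for the genes of the lists. With background subtracted they were 0 for eIF1, 0 for the other EIF2-named rows and 1 for eIF3, and with the replicate block 0, 0 and 2. With an intensity trend they were 2 for eIF1, 2 for eIF4 and 1 for eIF5 and eIF6, and eIF4 also had 2 with cyclic loess and with the stricter filter. Leaving out 1 array gave 0 to 1 for eIF1, 0 to 1 for the other EIF2-named rows and 1 to 5 for eIF3. No call was made for eIF2 or eIF2B under any of these. Eef1e1 was called under all 15 alternatives, and Eif3b, Eif4b and Eef1b2 under 14, lost without the filter. The other 6 called rows held under 6 or 7. Over 28 named rows, 351 values kept direction and side of the threshold, 54 lost and 6 gained a call, and 8 changed sign. Eif2b5 turned to 0.0037 with cyclic loess and ran over -0.073 to 0.029 with an array left out. Eif5 turned to -0.0070 with array weights and ran over -0.044 to 0.054 with an array left out. The cause was not tested. Taking 1 target a gene moved the share of higher calls over all targets to 54.2%, from 49.6%. The factor rows called were then 7 higher and 3 lower, of 47 tested.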
